A study of Mus musculus with 34 samples.

Results

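The p53 pathway genes described here are 32 named genes, found by symbol in the count table of the knockout libraries, where all 32 were present among 24223 rows and all passed the filter on low counts. They were chosen by name, with earlier results of these data known. The RNA came from airway epithelium brushed from the trachea of mice with a germline deletion of Gprc5a (Gprc5a-/-), a gene for an epithelial orphan receptor. Each library came from a separate mouse. The 5 groups are baseline, taken before any exposure (n = 6), t0, taken when exposure ended (n = 6), and t2 (n = 5), t4 (n = 6) and t6 (n = 5), taken 2, 4 and 6 months afterwards, with t6 described as the time of lung adenocarcinoma. All groups but baseline had been injected intraperitoneally with NNK, a nitrosamine of tobacco that alkylates DNA, at 50 mg/kg, 3 times per week over 8 weeks. The age label is 6 to 8 weeks in every group, so it gives the age at the start at most, and exposed mice were older than baseline mice by the time of exposure and follow-up. Unexposed mice of those ages were not analysed here, so age, exposure and time since exposure cannot be told apart. A further 6 libraries came from wild-type mice before exposure, with the same age label, and are used only for levels.

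The protein p53 is a transcription factor that is kept scarce by Mdm2, a ubiquitin ligase that marks it for destruction and that p53 itself switches on. DNA damage frees p53 from Mdm2, largely without any change in Trp53 mRNA, and p53 then activates genes that halt the cell cycle, adjust metabolism, open the mitochondrial and death receptor routes of apoptosis, or help DNA repair. What is measured here is the mRNA of these genes, not p53 protein or its binding to DNA.

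Knockout libraries held 15625276 to 37609816 counts in all. Gprc5a held 4 to 49 counts in 27 of the 28 knockout libraries and 238 counts in the library labelled t2 339, which also had the fewest genes above 0 (14475, against 16892 to 19082 in the other 27). Haemoglobin genes made up 22.8% of all counts of mouse 357 (t0), 25.5% for mouse 371 (t4) and 15.3% for mouse 349 (t6), and the ribosomal RNA Rn45s made up 14.8% for mouse 365 (t6). These 5 libraries are called doubted below. Library names join the group and the animal number, and CPM is the count per 1000000 counts of the library after TMM scaling.

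The 250 bases before an annotated start are shown for Cdkn1a, Ccng1, Bax and Trp53, whose mRNA rose at t0. They are also shown for Mdm2, whose mRNA did not pass the test. All are shown because each holds the p53 consensus decamer, the 10-base unit that p53 response elements carry as a pair. Sequences are RefSeq's on GRCm38.p6, the assembly behind mm10, written 5′ to 3′ on the gene's strand and ending at the base before the start, with each match in capitals.
Cdkn1a, chr17:29090729-29090978, plus strand: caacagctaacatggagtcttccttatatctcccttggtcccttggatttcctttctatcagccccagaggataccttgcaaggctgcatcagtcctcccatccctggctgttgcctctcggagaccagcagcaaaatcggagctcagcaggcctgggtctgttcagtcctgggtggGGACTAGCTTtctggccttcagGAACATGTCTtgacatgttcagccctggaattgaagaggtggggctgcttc
Ccng1, chr11:40755287-40755536, minus strand: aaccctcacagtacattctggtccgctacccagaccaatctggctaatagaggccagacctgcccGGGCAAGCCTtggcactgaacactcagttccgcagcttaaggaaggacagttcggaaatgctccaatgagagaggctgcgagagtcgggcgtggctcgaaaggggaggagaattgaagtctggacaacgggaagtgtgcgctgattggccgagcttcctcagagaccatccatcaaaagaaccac
Bax, chr7:45466899-45467148, minus strand: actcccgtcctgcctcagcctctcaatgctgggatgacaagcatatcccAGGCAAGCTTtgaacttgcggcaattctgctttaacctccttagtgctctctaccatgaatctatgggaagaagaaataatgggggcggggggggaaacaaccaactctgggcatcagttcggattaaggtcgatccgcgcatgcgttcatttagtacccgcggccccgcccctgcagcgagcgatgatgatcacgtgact
Trp53, chr11:69580109-69580358, plus strand: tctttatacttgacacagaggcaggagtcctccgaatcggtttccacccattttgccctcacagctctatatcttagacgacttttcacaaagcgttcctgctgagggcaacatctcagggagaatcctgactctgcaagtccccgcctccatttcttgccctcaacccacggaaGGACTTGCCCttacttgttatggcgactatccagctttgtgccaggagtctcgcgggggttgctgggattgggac
Mdm2, chr10:117710759-117711008, minus strand: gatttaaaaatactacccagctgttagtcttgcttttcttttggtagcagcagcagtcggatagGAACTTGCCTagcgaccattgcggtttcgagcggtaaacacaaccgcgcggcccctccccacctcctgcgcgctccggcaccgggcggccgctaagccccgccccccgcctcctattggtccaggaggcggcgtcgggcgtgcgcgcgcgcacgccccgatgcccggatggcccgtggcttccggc
The matches begin 73 and 51 bases before the start in Cdkn1a, 185 in Ccng1, 201 in Bax, 75 in Trp53 and 186 in Mdm2. Cdkn1a also has an annotated start further downstream, whose window (chr17:29093519-29093818) held no match. In Cdkn1a the match nearer the start is followed directly by 10 bases that fit the decamer at 9 of 10 positions. The next 10 bases after the other matches printed here fit at 3 to 7 of 10 positions. Only the bases after a match were scored for all genes, so a partner lying before a match is not covered by these values. In Ccng1 the 10 bases directly before the match fit at 9 of 10 positions. The search used the consensus decamer by its name, with no mismatch allowed; it is its own reverse complement, so both strands were covered, and no matches overlapped. Windows reaching 50 bases past the start were at hand for 24 of the 32 genes, and 10 of these 24 (41.7%) held a match, against 2582 of 27025 mouse genes with a window (9.55%). The other 5 with a match were Aen, Ei24 and Sesn1, which rose at t0, Gadd45a, which was not called, and Polk, which fell. A match is a description of the letters, not of p53 binding, and these genes were listed as p53 targets to begin with.

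At t0 the pathway moved broadly. Of the 32 genes, 21 rose and 3 fell relative to baseline (edgeR's quasi-likelihood test, Benjamini-Hochberg adjusted p under 0.05 over 14847 genes). Among all genes tested, 45.5% were called, 23.3% higher and 22.3% lower. The median log2 fold change was 0.82 over the 32 genes and 0.02 over all genes. In 15 of the 32 genes every t0 library lay above every baseline library, which held for 13.1% of all genes. By role, 9 of 10 apoptosis genes rose and Fas fell, 6 of 8 metabolic and stress regulators rose, 4 of 7 cell cycle arrest genes rose, Trp53 rose while Mdm2 was not called, and of 5 DNA repair genes Ercc5 rose while Polk and Rrm2b fell. The median over the 32 genes of the log2 ratio to the baseline mean (0.5 CPM added to both) was 0.67 to 1.00 in the 6 t0 libraries and -0.16 to 0.11 in the other 22.

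**Figure D1:**
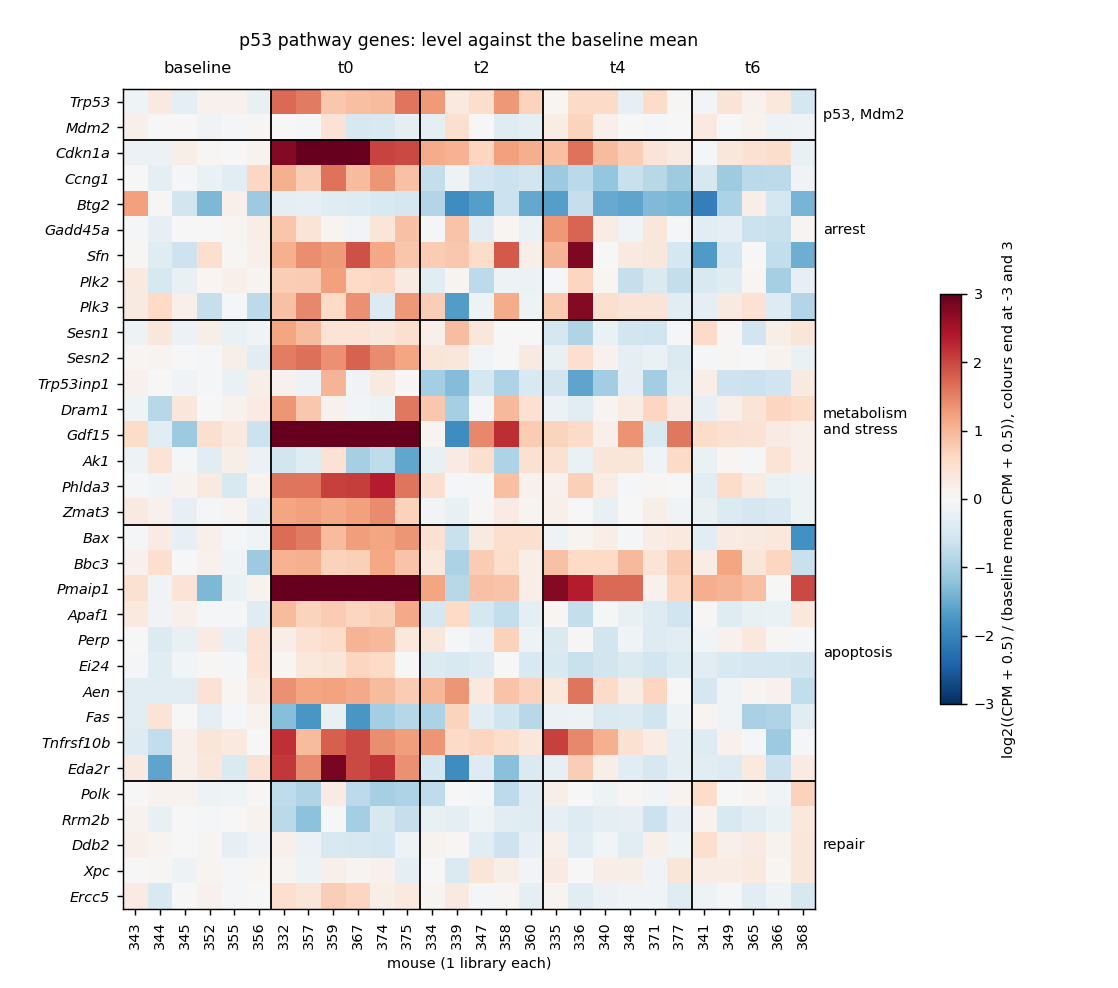
Level of each of the 32 genes (rows, ordered by role) in each of the 28 knockout libraries (columns, named by mouse and ordered by group), as log2 of CPM plus 0.5 over the baseline mean plus 0.5. The 6 t0 columns are red in most rows, while Mdm2 and Xpc stay near white and Fas, Polk and Rrm2b are mostly blue.

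Cell type markers moved at t0 as well. Summed markers of basal cells (10 genes) ranged from 5334 to 9854 CPM at t0, against 1417 to 3065 CPM at baseline, with 6 of 10 markers higher. Squamous markers (12 genes, 9 tested, 7 higher) summed to 1758 to 4757 CPM at t0, against 83.3 to 307 CPM at baseline, and Sprr1b was listed at 0 in both groups. Club cell markers (9 of 9 lower) summed to 24052 to 38506 CPM at t0, against 82649 to 121694 CPM at baseline, and ciliated cell markers (10 of 10 lower) to 1198 to 2773 CPM, against 3154 to 4089 CPM. T and NK cell markers summed to 11.9 to 173 CPM at t0, against 2.67 to 13.5 CPM at baseline, and B cell markers to 10.6 to 61.0 CPM, against 1.13 to 3.57 CPM. Macrophage markers summed to 1997 to 6572 CPM at t0, against 3163 to 8051 CPM at baseline, although 8 of the 9 tested rose and 1 fell. The median log2 fold change of those 9 was 3.41. Abundant markers weigh most in a sum, so the macrophage sum does not describe most genes of its list. Skeletal muscle markers (9 genes) summed to 1.89 to 11.5 CPM at baseline and 6.29 to 251 CPM at t0. Later sums were 119 to 1665 CPM at t2, 17.2 to 97.8 CPM at t4 and 18.3 to 1792 CPM at t6. Pvalb was at 0 in all baseline libraries, so it passed the filter on low counts only through exposed libraries. Calls of these muscle markers are therefore not read as results. Club cell markers stayed below the baseline range later, at 42528 to 67304 CPM at t2, 38178 to 66995 CPM at t4 and 34212 to 77529 CPM at t6. Their part in the p53 pathway changes was not tested. In these bulk brushings, fewer cells of a type and less RNA per cell cannot be told apart.

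**Figure D2:**
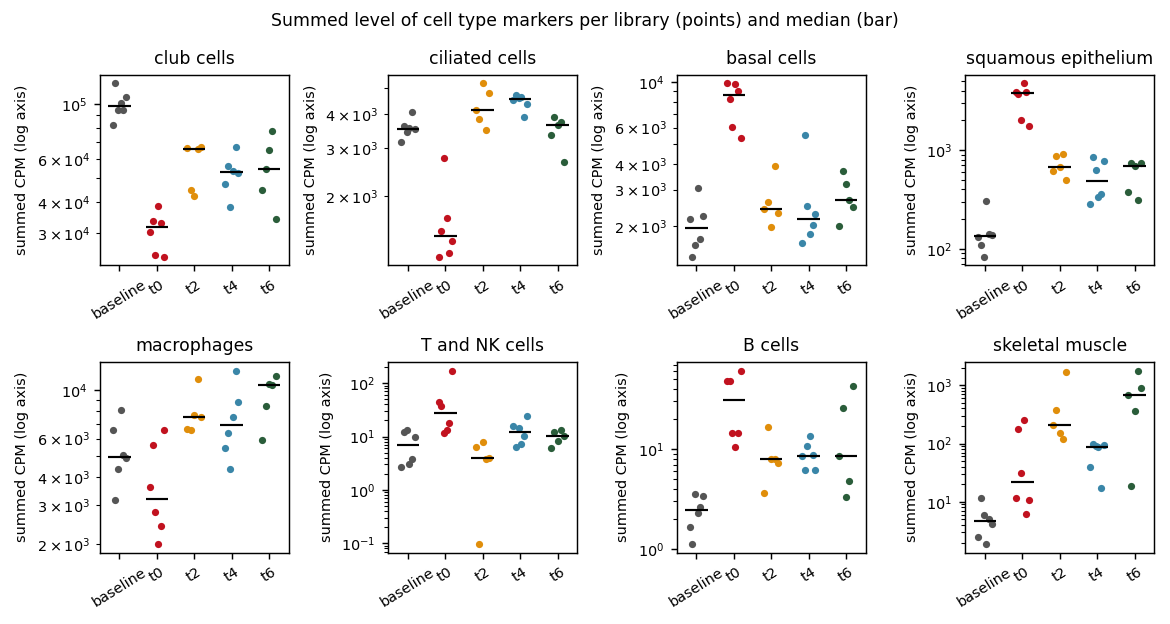
Summed CPM (log axis) of the marker genes of 8 cell types in each of the 28 knockout libraries (points), with the group median (bar). The 6 t0 libraries lie above all baseline libraries for basal and squamous markers (5334 to 9854 against 1417 to 3065 CPM, and 1758 to 4757 against 83.3 to 307 CPM) and below them for club and ciliated markers.

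The mRNA of p53 itself rose and then came down. Trp53 (chromosome 11, 69580359 to 69591874, mm10) ranged from 50.4 to 94.9 CPM at t0 with a median of 71.0, against 23.9 to 34.7 CPM with a median of 28.8 at baseline. Its 5 t2 libraries held 70.2, 35.3, 41.8, 71.6 and 45.7 CPM. All t0 and all t2 libraries lay above all baseline libraries. The t4 libraries ran from 24.2 to 43.3 CPM with a median of 36.3, and the t6 libraries held 27.3, 37.8, 31.7, 36.1 and 19.7 CPM, so both groups overlapped baseline. Trp53 was 2.50-fold higher at t0 than at baseline (log2 fold change 1.32 ± 0.21 SE, adjusted p = 8.8e-06) and 1.84-fold higher at t2 than at baseline (0.88 ± 0.21, adjusted p = 0.0048). It was not called at t4 (0.30, adjusted p = 0.3) or t6 (0.09, adjusted p = 0.86). The genome annotation also holds a processed Trp53 pseudogene, and how the authors shared reads between both loci is not given in the sources used here.

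Mdm2, the feedback inhibitor, did not pass the test at any time. Mdm2 (chromosome 10, 117688875 to 117710759) ranged from 62.0 to 117 CPM at t0 with a median of 77.6, against 80.8 to 96.1 CPM with a median of 86 at baseline. The t2 libraries held 71.4, 122, 88.1, 67.6 and 71.9 CPM, the t4 libraries ran from 84.6 to 138 CPM with a median of 91.9, and the t6 libraries held 107, 88.2, 94.4, 77.6 and 81.4 CPM. Of the t0 libraries, 1 was above and 3 were below every baseline library, so the t0 values lay on both sides of baseline. The log2 fold change was -0.11 ± 0.15 at t0 (adjusted p = 0.6) and lay between -0.04 and 0.18 at the later times (adjusted p of 0.42 to 0.91), and a test for any difference over the 5 groups gave an adjusted p of 0.47. With every processing alternative and every library left out in turn, the t0 value stayed between -0.24 and 0.08 and was not called.

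Cdkn1a had the smallest F-test p of the 32 genes (adjusted p = 2.3e-10). It encodes p21, the inhibitor of cyclin-dependent kinases through which p53 stops the cell cycle. Cdkn1a (chromosome 17, 29090986 to 29100723) ranged from 258 to 642 CPM at t0 with a median of 525, against 57.2 to 72.9 CPM with a median of 65.3 at baseline. The t2 libraries held 140, 133, 101, 152 and 139 CPM, and the t4 libraries ran from 78.1 to 200 CPM with a median of 115. All libraries of these 3 groups lay above all baseline libraries, while the t6 libraries, at 61.6, 81.2, 88.2, 93.6 and 55.4 CPM, fell on both sides of them. Cdkn1a was 7.35-fold higher at t0 than at baseline (log2 fold change 2.88 ± 0.24, adjusted p = 6.6e-10), 2.06-fold higher at t2 (1.04 ± 0.23, adjusted p = 0.0027) and 1.85-fold higher at t4 (0.89 ± 0.22, adjusted p = 0.0063). At t6 it was not called (0.23, adjusted p = 0.6). An unclassified transcript on the opposite strand shares 7.68% of its exon bases, and the use of strand in counting is not given in the sources used here.

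Ccng1, which encodes cyclin G1, a regulator of p53 and Mdm2 that p53 induces, was called at all 4 times, and the direction turned after t0. Ccng1 (chromosome 11, 40748552 to 40755287) ranged from 177 to 330 CPM at t0 with a median of 213, against 85.2 to 164 CPM with a median of 96.7 at baseline. The t2 libraries held 64.0, 94.8, 71.1, 67.2 and 72.4 CPM, the t4 libraries ran from 47.5 to 66.8 CPM with a median of 54.8, and the t6 libraries held 75.1, 50.7, 60.1, 61.6 and 98.5 CPM. All t0 libraries lay above baseline and all t4 libraries below it. Ccng1 was 2.20-fold higher at t0 (log2 fold change 1.13 ± 0.17, adjusted p = 7.1e-06) and 1.91-fold lower at t4 (-0.93 ± 0.17, adjusted p = 0.00054) than at baseline. The falls at t2 (-0.52 ± 0.18, adjusted p = 0.043) and t6 (-0.61 ± 0.18, adjusted p = 0.033) were less stable. The t2 call was lost without baseline 343, 345 or 356 or t2 334, 347, 358 or 360 (adjusted p up to 0.15). The t6 call was lost without baseline 343 or 356 or t6 349, 365 or 366 (adjusted p up to 0.11), and also without the 5 doubted libraries (-0.39, adjusted p = 0.27). With library totals alone as the scaling, neither of these passed.

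The other arrest genes were mixed. Plk2, a polo-like kinase induced by stress, ranged from 48.5 to 94.2 CPM at t0 with a median of 64.3, against 28.3 to 48.9 CPM with a median of 41.9 at baseline, and rose (log2 fold change 0.74 ± 0.21, adjusted p = 0.0049). Its t2 libraries held 31.9, 42.2, 22.9, 36.0 and 35.2 CPM, its t4 libraries 24.1 to 62.3 CPM with a median of 34.2, and its t6 libraries 28.9, 31.1, 41.6, 19.9 and 33.7 CPM. Thus 5 of 6 t0 libraries lay above every baseline library, and no later group was called. Sfn, or stratifin, an epithelial protein that holds cells before mitosis, rose at t0 (564 ± 156 CPM, against 226 ± 60.5 CPM at baseline; SD, n = 6 each; log2 fold change 1.32 ± 0.42, adjusted p = 0.012). Basal and squamous markers rose with it, as given above, and t4 336, with 1589 CPM of Sfn against 156 to 458 CPM in the other t4 libraries, also had the highest basal sum of its group (5551 CPM, against 1645 to 2505 CPM).

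Btg2, an antiproliferative gene, fell at t2 (71.0 ± 26.5 CPM, n = 5, against 168 ± 120 CPM at baseline, n = 6; adjusted p = 0.021) and at t4 (67.1 ± 18.9 CPM; adjusted p = 0.01). Both calls rest on baseline 343, which held 392 CPM against 65.2 to 185 CPM in the other 5, and without it the adjusted p was 0.093 at t2 and 0.053 at t4. Gadd45a, a stress sensor, was called higher only at t4 (14.8 ± 8.97 CPM, against 8.6 ± 0.878 CPM at baseline; adjusted p = 0.0498). That call was lost without any 1 of 20 libraries, which are all 6 of baseline, t0 332, 357, 374 and 375, t2 334, 347, 358 and 360, t4 335 and 336, and t6 341, 349, 365 and 366 (adjusted p up to 0.22). A noncoding transcript on the opposite strand shares 19.1% of its exon bases. Plk3, another stress-induced polo-like kinase, was not called at any time; its t0 log2 fold change was 1.01 ± 0.46 (adjusted p = 0.076), and it passed without t4 336 (adjusted p = 0.026) or t0 374.

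Of the 8 metabolic and stress regulators, Trp53inp1 and Ak1 alone were not called at t0, and the other 6 rose. Sesn2, a sestrin that restrains mTORC1, ranged from 30.4 to 45.2 CPM at t0 with a median of 37.3, against 10.2 to 14.8 CPM with a median of 13.3 at baseline. The t2 libraries held 16.8, 16.6, 12.3, 13.1 and 15.9 CPM, the t4 libraries 9.49 to 18.8 CPM with a median of 11.1, and the t6 libraries 12.7, 13.4, 13.2, 14.1 and 11.3 CPM. All t0 libraries lay above all baseline libraries, and each later group overlapped baseline. Sesn2 was 2.91-fold higher at t0 (log2 fold change 1.54 ± 0.15, adjusted p = 7.8e-09) and not called later (0.20, -0.05 and -0.01 at t2, t4 and t6). Its relative Sesn1 also rose, with 35.1 ± 9.40 CPM at t0, against 22 ± 3.73 CPM at baseline (0.68 ± 0.20, adjusted p = 0.0062).

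Phlda3, a small protein that blocks AKT at the membrane, ranged from 120 to 202 CPM at t0 with a median of 143, against 28.8 to 47.2 CPM with a median of 40.4 at baseline. At t2 its libraries held 55.0, 37.9, 38.1, 73.4 and 43.1 CPM, its t4 libraries 37.6 to 64.6 CPM with a median of 41.6, and its t6 libraries 31.2, 57.7, 48.6, 34.0 and 35.2 CPM. Its t0 and baseline libraries did not overlap, and the change was 3.80-fold (log2 fold change 1.93 ± 0.19, adjusted p = 1.3e-08). Zmat3, a zinc finger protein that binds RNA, ranged from 31.7 to 52.3 CPM at t0 with a median of 45.4, against 16.0 to 23.2 CPM with a median of 19.6 at baseline. The t2 libraries held 18.1, 16.5, 19.8, 23.1 and 20.6 CPM, the t4 libraries 16.4 to 21.7 CPM with a median of 19.3, and the t6 libraries 16.4, 14.5, 13.5, 13.9 and 17.4 CPM. Its groups were narrow and t0 stood clear of every other group, 2.28-fold above baseline (1.19 ± 0.12, adjusted p = 3.2e-08).

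Gdf15, a secreted stress cytokine, had the largest fold change of the 32 genes at t0, from a low level. It ranged from 16.1 to 89.2 CPM at t0, against 0.347 to 2.17 CPM at baseline, a log2 fold change of 5.05 ± 0.71 (adjusted p = 2.5e-06). At t2 it was not called (1.33, adjusted p = 0.15), but it passed without t2 339, where it was at 0 (adjusted p = 0.026), and without all 5 doubted libraries (adjusted p = 0.03). Dram1, a lysosomal protein linked to autophagy, rose at t0 (19.4 ± 10.3 CPM, against 11.2 ± 2.90 CPM; log2 fold change 0.79 ± 0.31, adjusted p = 0.04), with 4 of 6 libraries above the baseline mean. Its call was lost without baseline 343, 344, 352 or 355 or t0 332, 357 or 375 (adjusted p up to 0.16). The call of Dram1 was also lost under 5 processing alternatives (adjusted p up to 0.081). Trp53inp1, a stress protein of the same processes, was not called at t0 and fell at t2 (-0.82 ± 0.24, adjusted p = 0.016) and t4 (-0.75 ± 0.22, adjusted p = 0.019), with all libraries of both groups below baseline. With library totals alone as the scaling, those falls did not pass (adjusted p up to 0.13). Ak1, an adenylate kinase, was not called at any time (-0.50 at t0, adjusted p = 0.1), but without t0 359 it fell at t0 (-0.80, adjusted p = 0.004).

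All 10 apoptosis genes were called at t0, and Fas alone was lower. Bax, which opens the outer mitochondrial membrane, ranged from 74.7 to 124 CPM at t0 with a median of 94.2, against 32.1 to 45.3 CPM with a median of 37.0 at baseline. Its t2 libraries held 52.5, 24.1, 46.0, 54.5 and 53.9 CPM, its t4 libraries 34.4 to 46.9 CPM with a median of 42.5, and its t6 libraries 30.0, 45.1, 46.3, 47.4 and 10.5 CPM. All t0 libraries lay above baseline, and t2 339, t6 341 and t6 368 lay below it. Bax was 2.57-fold higher at t0 (log2 fold change 1.36 ± 0.24, adjusted p = 3.7e-05) and was not called at t2, t4 or t6. A same-strand gene model shares 12.2% of its exon bases.

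Pmaip1, which encodes Noxa, a protein that releases Bax and its relatives from their inhibitors, ranged from 29.8 to 51.9 CPM at t0 with a median of 36.9, against 0.825 to 4.10 CPM with a median of 2.88 at baseline. In t2 libraries Pmaip1 was at 7.07, 1.39, 5.65, 5.61 and 3.32 CPM, in t4 libraries at 3.19 to 22 CPM with a median of 10.4, and in t6 libraries at 6.66, 6.31, 5.73, 2.80 and 12.7 CPM. The t0 libraries stood above every other library, and 5 of the 6 t4 libraries lay above all of baseline. Pmaip1 was 13.4-fold higher at t0 (log2 fold change 3.75 ± 0.45, adjusted p = 2.9e-07) and 3.92-fold higher at t4 (1.97 ± 0.43, adjusted p = 0.002). The values at t2 (0.69, adjusted p = 0.27) and t6 (1.25, adjusted p = 0.068) did not pass, although the t6 value passed without t2 339, t4 371 or t6 366. Bbc3, which encodes Puma and acts the same way, rose at t0 (16.7 ± 2.34 CPM, against 8.48 ± 2.80 CPM; 0.97 ± 0.27, adjusted p = 0.0048). Apaf1, the scaffold on which caspases are activated, also rose at t0 (21.1 ± 3.05 CPM, against 11.6 ± 1.88 CPM; 0.86 ± 0.20, adjusted p = 0.00096).

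Among death receptors the directions differed. Tnfrsf10b, the mouse TRAIL receptor, rose at t0 (29.8 ± 9.70 CPM, against 9.10 ± 2.56 CPM at baseline; log2 fold change 1.71 ± 0.32, adjusted p = 0.0001) and at t4 (1.08 ± 0.32, adjusted p = 0.018); the t4 value did not pass without t4 335 (adjusted p = 0.089). Eda2r, a receptor of ectodysplasin, rose at t0 from few reads (4.25 to 12.7 CPM, against 0.110 to 1.96 CPM at baseline; 2.44 ± 0.58, adjusted p = 0.0011). Fas, the receptor of Fas ligand, fell to 10.3 ± 4.67 CPM at t0, against 21.7 ± 4.30 CPM at baseline (-1.08 ± 0.27, adjusted p = 0.0019), with 5 of 6 t0 libraries below every baseline library. The t0 fall of Fas passed under every processing alternative and with each library left out in turn.

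Ei24, a membrane protein of the endoplasmic reticulum, ranged from 66.6 to 104 CPM at t0 with a median of 84.7, against 52.8 to 88.9 CPM with a median of 64.1 at baseline. Its t2 libraries held 50.0, 48.6, 51.2, 67.5 and 48.6 CPM, its t4 libraries 42.3 to 50.3 CPM with a median of 47.2, and its t6 libraries 52.5, 48.6, 46.9, 46.4 and 45.9 CPM. All t4 and t6 libraries lay below baseline, whereas t0 overlapped it. The rise at t0 was small (log2 fold change 0.35 ± 0.12, adjusted p = 0.018) and was lost without baseline 344 or t0 367 or 374 (adjusted p up to 0.058). It was also lost under 2 processing alternatives (adjusted p up to 0.071). The falls were -0.51 ± 0.12 at t4 (adjusted p = 0.0038) and -0.48 ± 0.13 at t6 (adjusted p = 0.015). Neither passed with library totals alone (adjusted p up to 0.055 at t4 and 0.16 at t6), and the t6 fall was lost without baseline 356 (adjusted p = 0.051) or without the 5 doubted libraries (-0.43, adjusted p = 0.12). An antisense transcript shares 6.66% of its exon bases.

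Aen, a nuclease that digests DNA during apoptosis, rose at t0 (94.7 ± 13.4 CPM, against 43.6 ± 10.5 CPM at baseline; log2 fold change 1.12 ± 0.22, adjusted p = 0.00017), at t2 (0.88 ± 0.23, adjusted p = 0.0082) and at t4 (0.67 ± 0.22, adjusted p = 0.031). The t4 value fell to 0.38 (adjusted p = 0.15) without t4 336, and the call was also lost without baseline 343, 344 or 345. Perp, a desmosome protein needed for p53-dependent death in some cells, rose at t0 (259 ± 61.5 CPM, against 169 ± 38.7 CPM; 0.62 ± 0.17, adjusted p = 0.0036). Basal and squamous markers, from cells rich in desmosomes, rose at the same time, and their part in the Perp change was not tested.

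**Figure D3:**
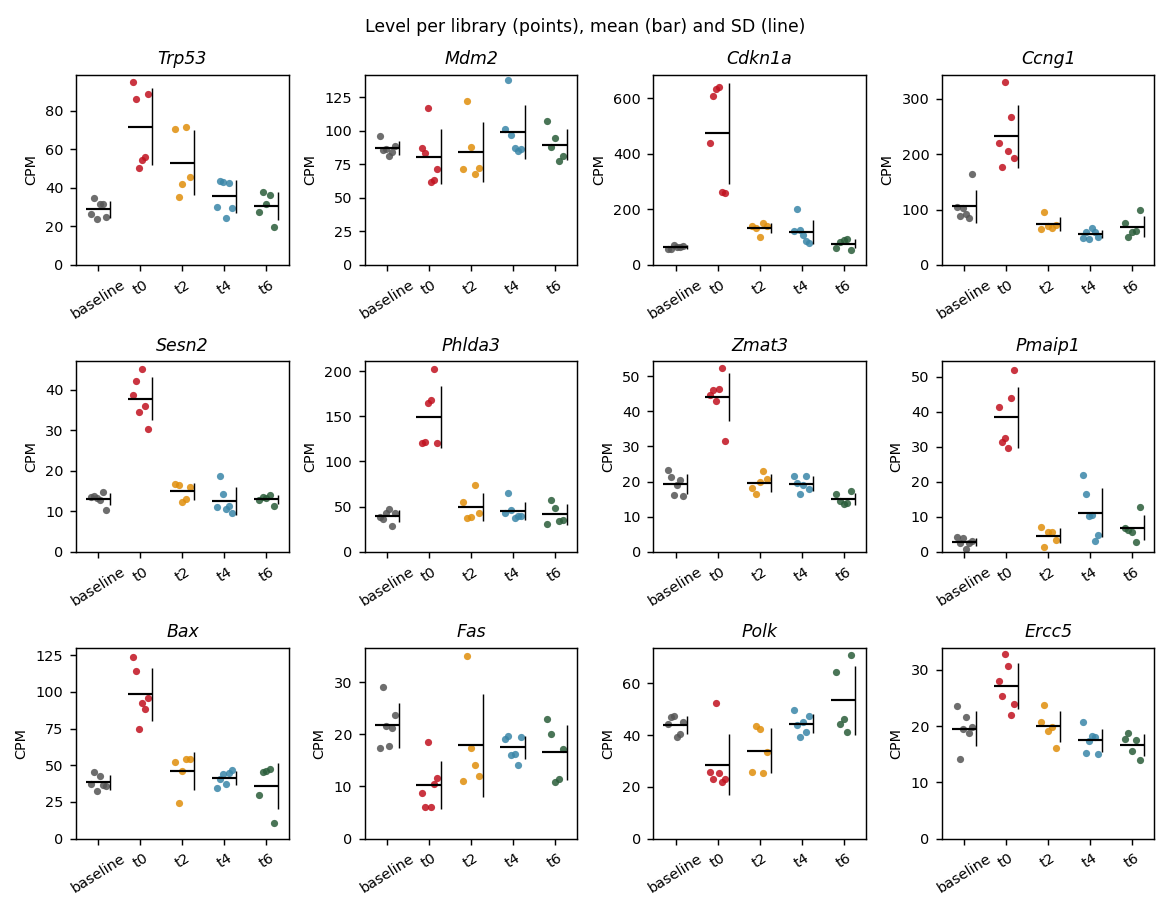
CPM per library (points) for 12 of the genes in the 5 groups, with the mean (bar) and SD (line); each axis starts at 0. Cdkn1a, Sesn2, Phlda3, Zmat3, Pmaip1 and Bax stand above baseline in all 6 t0 libraries, Mdm2 overlaps baseline throughout, and Fas and Polk lie below baseline in 5 of 6 t0 libraries.

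The DNA repair genes moved in both directions. Ercc5, the nuclease that cuts beside a lesion in nucleotide excision repair, ranged from 22 to 32.9 CPM at t0 with a median of 26.7, against 14.2 to 23.5 CPM with a median of 19.6 at baseline. Ercc5 in t2 libraries was at 20.8, 23.7, 19.2, 19.9 and 16.2 CPM, in t4 libraries at 15 to 20.7 CPM with a median of 17.7, and in t6 libraries at 17.7, 18.7, 15.6, 17.5 and 13.9 CPM. Of the t0 libraries, 5 of 6 lay above every baseline library, and Ercc5 rose 1.39-fold (log2 fold change 0.47 ± 0.13, adjusted p = 0.0038).

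Polk, a polymerase that copies past bulky lesions, ranged from 21.9 to 52.3 CPM at t0 with a median of 24.2, against 39.2 to 47.4 CPM with a median of 44.6 at baseline. Its t2 libraries held 25.7, 43.6, 42.2, 25.3 and 33.3 CPM, its t4 libraries 39.3 to 49.5 CPM with a median of 44.6, and its t6 libraries 64.3, 44.3, 46.3, 41.0 and 70.8 CPM. The t0 libraries other than 359 lay below all of baseline, and 359 lay above it. Polk fell 1.53-fold at t0 (log2 fold change -0.62 ± 0.18, adjusted p = 0.0077). Rrm2b, the p53-induced subunit of ribonucleotide reductase, ranged from 10.3 to 25.1 CPM at t0 with a median of 14.6, against 21.1 to 26.6 CPM with a median of 25.1 at baseline. Its t2 libraries held 21.3, 20.2, 22.6, 19.6 and 19.1 CPM, its t4 libraries 15.7 to 21 CPM with a median of 20.5, and its t6 libraries 26.8, 17.9, 19.5, 21.4 and 30.8 CPM. Mouse 359 gave the only t0 library within the baseline range, and Rrm2b fell 1.57-fold at t0 (-0.65 ± 0.16, adjusted p = 0.0016).

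Neither fall passed when libraries were scaled by their totals alone (log2 fold change -0.41 for Polk and -0.44 for Rrm2b, adjusted p of 0.18 and 0.13). That scaling moved the median of all genes from 0.02 to 0.19 at t0, and 69.4% of all calls were then rises, against 51.1% with TMM scaling. Ddb2 and Xpc, which find lesions for nucleotide excision repair, were not called against baseline at any time. Ddb2 had 10.2 ± 2.00 CPM at t0, against 12.2 ± 1.26 CPM at baseline (-0.27, adjusted p = 0.15), and Xpc 37.2 ± 4.25 CPM, against 36.9 ± 2.21 CPM (0.01, adjusted p = 0.93). Acp2, on the opposite strand, shares 23.8% of the exon bases of Ddb2.

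After exposure fewer of the 32 genes were called against baseline. At t2, 3 rose (Trp53, Cdkn1a and Aen) and 3 fell (Ccng1, Btg2 and Trp53inp1), or 18.8% of the 32, against 19.9% of all genes (11.2% higher, 8.73% lower). The fall of Btg2 did not pass without baseline 343, nor that of Ccng1 without any of the 7 libraries named above, and 1 fall was called without baseline 343. At t4, 5 rose (Cdkn1a, Pmaip1, Aen, Tnfrsf10b and Gadd45a) and 4 fell (Ccng1, Btg2, Trp53inp1 and Ei24), or 28.1%, against 19.6% of all genes (10.0% higher, 9.56% lower). The 5 rises became 3 without baseline 343 or 345 or t4 335 or 336, and 8 without the 5 doubted libraries, where Sfn (1.27, against 1.14 and an adjusted p of 0.0545 with all libraries) and Plk3 (1.29, against 1.17 and an adjusted p of 0.075) also passed. The eighth was Bbc3 at t4 (0.75, adjusted p = 0.052 with all libraries), which passed under most of the other settings as well. At t6 none rose and 2 fell (Ccng1 and Ei24), or 6.25%, against 8.83% of all genes (4.54% higher, 4.29% lower). At an unadjusted p under 0.05, 1 was higher and 3 were lower at t6, while DESeq2 called 1 higher and 2 lower. The 2 falls at t6 became 1 without baseline 343 or t6 349, 365 or 366, and 0 without baseline 356 or without the 5 doubted libraries. The median log2 fold change over the 32 genes was 0.13 at t2, 0.07 at t4 and -0.08 at t6, and over all genes 0.02, 0.01 and -0.01. All 4 comparisons share the baseline libraries.

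**Figure D4:**
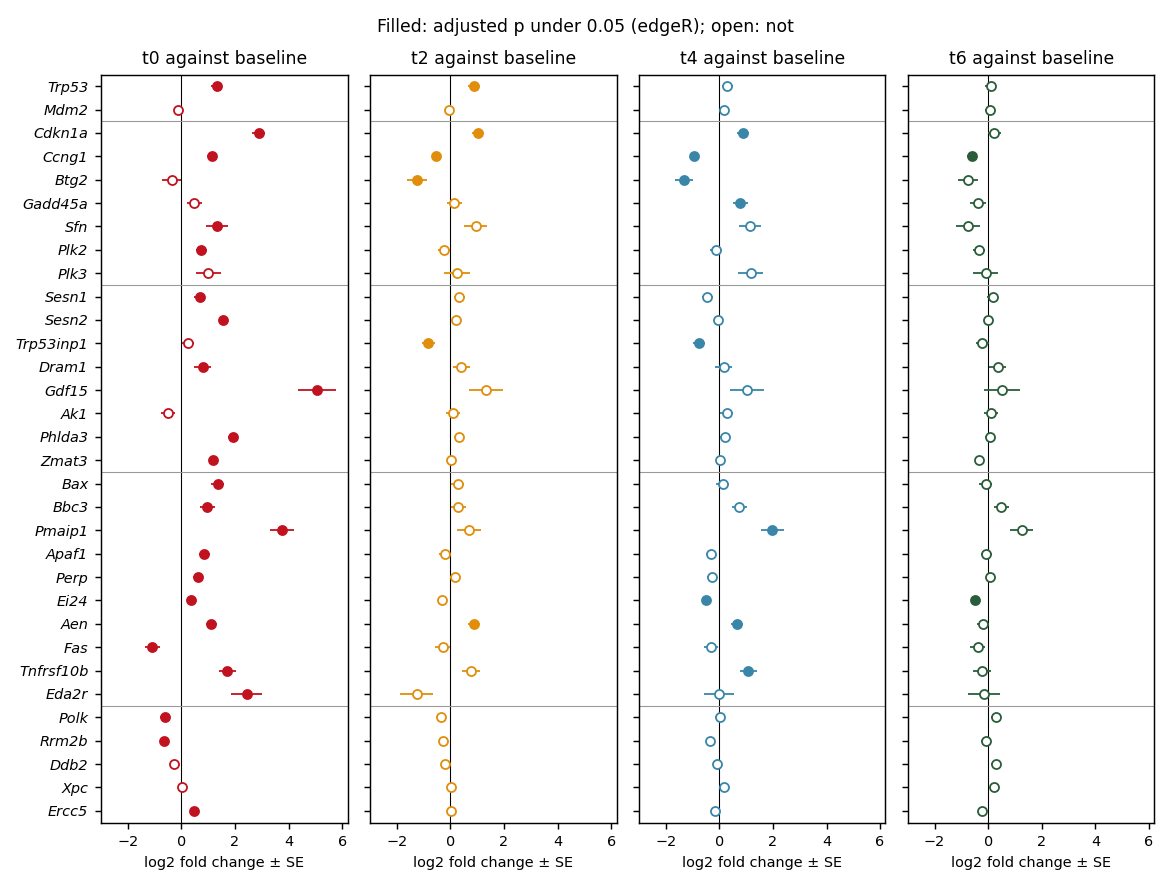
Log2 fold change ± SE of the 32 genes (rows) at t0, t2, t4 and t6 against baseline (panels); filled points passed an adjusted p of 0.05 and open points did not. The t0 panel holds 24 filled points, 21 of them right of 0, and the t6 panel holds 2, both left of 0.

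The change since t0 was tested directly. At t2, 15 of the 32 genes were lower than at t0 and 1 was higher (50.0% called); among all genes 29.9% were called, 14.2% lower and 15.7% higher. In 13 of the 32 every t2 library lay below every t0 library, as in 6.9% of all genes. Cdkn1a fell 3.57-fold (133 ± 19.2 CPM at t2, against 475 ± 181 CPM at t0; log2 fold change -1.84 ± 0.24, adjusted p = 2.9e-06), and Zmat3, Sesn2, Phlda3, Ccng1, Bax, Pmaip1, Gdf15 and Eda2r fell 2.13-fold to 13.1-fold, with no overlap of their libraries. Trp53 (-0.44, adjusted p = 0.12) and Aen (-0.24, adjusted p = 0.46) did not pass. Fas was the gene higher at t2 (0.80 ± 0.28, adjusted p = 0.032); without t2 339 its value was 0.40 (adjusted p = 0.24), and the call was also lost without t0 332, 357 or 367 or without the 5 doubted libraries (0.31, adjusted p = 0.38). At t6, 19 genes were lower than at t0 and 3 were higher (68.8% called); among all genes 38.7% were called, 20.5% lower and 18.2% higher. In 17 of the 32 every t6 library lay below every t0 library, as in 12.1% of all genes. Trp53 fell 2.35-fold (30.5 ± 7.28 CPM at t6, against 71.7 ± 20.1 CPM at t0; -1.23 ± 0.22, adjusted p = 5.8e-05), Cdkn1a 6.25-fold (-2.64 ± 0.25, adjusted p = 5.3e-08) and Sfn 4.23-fold (-2.08 ± 0.46, adjusted p = 0.00079). The 3 higher genes, Polk (0.90 ± 0.19, adjusted p = 0.00053), Rrm2b (0.57 ± 0.17, adjusted p = 0.009) and Ddb2 (0.55 ± 0.16, adjusted p = 0.0076), all belong to DNA repair and nucleotide supply, and 5 were higher without t0 359. With library totals alone, Polk was the gene of these that passed. Both comparisons share the t0 libraries with the comparison of t0 and baseline. Over the 5 groups together, 27 of the 32 genes differed (84.4%, against 56.8% of all genes); Ak1, Dram1, Mdm2, Plk3 and Xpc did not pass.

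The t0 mice varied among themselves. Of the 21 genes that rose, t0 375 held the lowest level of the 6 in 9 and the highest in 4. The library t0 359 was lowest in 3 and highest in 4, although it held the highest Polk, Rrm2b and Fas levels of its group, where the other 5 mice were low. Its summed ciliated markers were also the highest of its group (2773 CPM, against 1198 to 1660 CPM). The part of ciliated cells in these 3 genes was not tested. All 6 mice had 22 to 29 of the 32 genes above the baseline mean, against 12 to 20 of 32 in every other library, baseline included. At t4, t4 336 was the highest of its group for genes that include Cdkn1a (200 CPM), Mdm2, Sfn, Plk2, Plk3, Phlda3 and Aen, with raised basal markers as given above. It was also the lowest of its group for Sesn1, Trp53inp1, Dram1, Ak1, Apaf1, Ei24 and Ddb2. Its median log2 ratio over the 32 genes was 0.06, within the t4 range of -0.12 to 0.11.

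Other genes of the pathway came from 3 lists. Of 25 p53 regulators and relatives, 5 rose and 6 fell at t0 (median log2 fold change 0.03), or 44.0% called, against 45.5% of all genes. Ppp1r13l, which encodes the p53 inhibitor iASPP, rose (74.5 ± 28.0 CPM, against 19.8 ± 3.64 CPM at baseline; 1.91 ± 0.24, adjusted p = 4.9e-07), as did Daxx, a nuclear adaptor that binds Mdm2 (0.83 ± 0.12, adjusted p = 3e-06), while Trp73, a p53 relative active in ciliated cells, fell (18.9 ± 8.10 CPM, against 50.4 ± 11.5 CPM; -1.41 ± 0.20, adjusted p = 3e-06), with the ciliated markers lower as given above. At t6, 1 was called higher and 2 lower, or 12%, against 8.83% of all genes. The higher one was Cdkn2a, whose products p16 and Arf restrain the cell cycle and Mdm2, with 1.14 ± 0.610 CPM at t6 (n = 5), against 0.141 ± 0.121 CPM at baseline (n = 6). It passed the filter on low counts only through exposed libraries, which favours a difference from baseline. Its call, which also counts among the 5 at t0, is therefore not read as a result. Uhrf2, a ubiquitin ligase (-0.48 ± 0.13, adjusted p = 0.016), and Trp63, the basal cell relative of p53 (-0.63 ± 0.20, adjusted p = 0.045), fell. Summed basal markers, a list that includes Trp63, were at 1988 to 3675 CPM at t6, against 1417 to 3065 CPM at baseline. The part of basal cells in the Trp63 value was not tested.

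Of 28 tested genes among 30 other reported p53 targets, 14 rose and 3 fell at t0 (median 0.66), or 60.7% called, against 45.5% of all genes. Gtse1, a mitotic protein that restrains p53 (2.30 ± 0.24, adjusted p = 2.9e-08), Def6 (1.70 ± 0.18, adjusted p = 5.8e-08) and the phosphatase gene Ptp4a3 (2.38 ± 0.27, adjusted p = 9.3e-08) rose. At t6 Igfbp3, a carrier of insulin-like growth factors, was higher (0.92 ± 0.25, adjusted p = 0.021), and Ephx1, an epoxide hydrolase (-0.67 ± 0.18, adjusted p = 0.02), and the ribosomal protein gene Rps27l (-0.80 ± 0.25, adjusted p = 0.041) were lower, or 10.7% called, against 8.83% of all genes. The third list holds 20 cell cycle genes that p53 lowers in many cells through p21 and the DREAM repressor complex. At t0, 17 of the 20 rose and none fell (median 1.40), or 85% called, against 45.5% of all genes, in the same libraries in which Cdkn1a rose. Foxm1 (1.41 ± 0.22, adjusted p = 7.4e-06), Cdc20 (1.76 ± 0.30, adjusted p = 2.8e-05) and Kif23 (1.65 ± 0.29, adjusted p = 3.6e-05) were among them. At t6 none rose, and Plk1 (-0.77 ± 0.21, adjusted p = 0.023) and Mcm5 (-0.90 ± 0.28, adjusted p = 0.045) fell, 10.0% of the list against 8.83% of all genes, while E2f1 did not pass (-1.07 ± 0.40, adjusted p = 0.095). A brushing averages over cells, so whether one cell held both p21 and cell cycle mRNA was not tested.

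**Figure D5:**
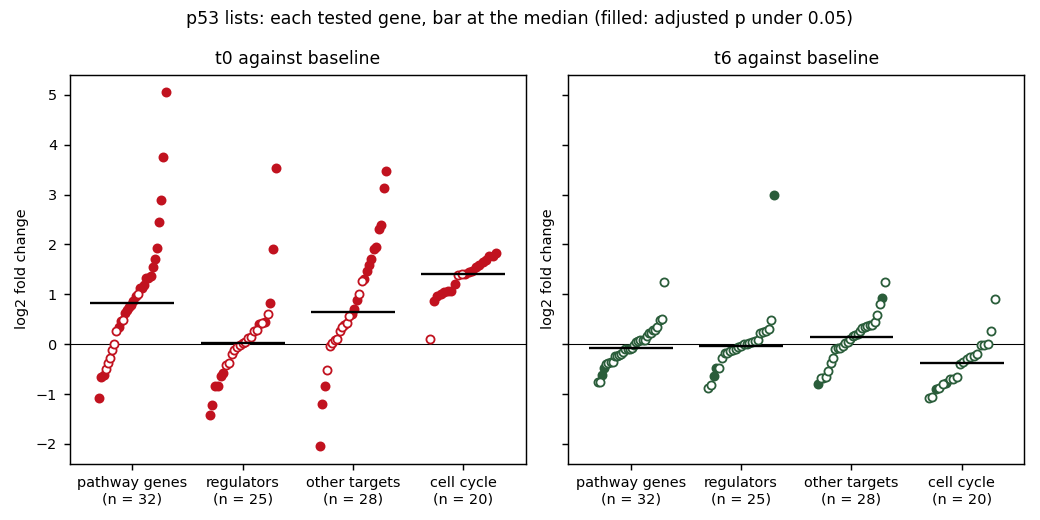
Log2 fold change of every tested gene in the 32 pathway genes, 25 regulators, 28 other targets and 20 cell cycle genes, at t0 (left) and t6 (right) against baseline, with the median as a bar; filled points passed an adjusted p of 0.05. At t0 the medians are 0.82, 0.03, 0.66 and 1.40, and at t6 they are -0.08, -0.03, 0.13 and -0.37.

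Levels per transcript length were available for the 6 unexposed wild-type libraries, as TPM, a share of all transcripts that allows for their length. Perp (77.1 ± 27.0 TPM, SD, n = 6), Sfn (70.8 ± 32.1 TPM) and Bax (54.8 ± 30.3 TPM) had the highest means of the 32 genes, and these neighbours did not differ beyond their spread. Mdm2 averaged 31.3 ± 10.3 TPM and Cdkn1a 18.3 ± 6.29 TPM. Trp53 averaged 30.8 ± 30.0 TPM, but 5 libraries held 11.3 to 23.5 TPM and wild-type mouse 295 held 91.5 TPM. The lowest means were those of Pmaip1 (0.618 ± 0.701 TPM), Gdf15 (0.465 ± 0.149 TPM) and Eda2r (0.387 ± 0.228 TPM). These genes had 1 to 75, 3 to 17 and 2 to 35 estimated counts per library. Tnfrsf10b was at 0 in 1 library, that of mouse 295. Gdf15, Pmaip1 and Eda2r were also at low CPM in the knockout mice at baseline, and their fold changes at t0 are given above. The wild-type files were made with another pipeline, so no test was run between genotypes.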

How the data were processed

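RNA from mouse tracheal brushings was poly-A selected and sequenced on an Ion Proton instrument, per the labels' protocols. The submitters' processing notes name mm10, STAR 2.4.1d, Bowtie2 2.1.0 and Partek for the knockout libraries, and GRCm38, STAR 2.7.0f and RSEM 1.3.1 for the wild-type libraries. The knockout table is named by the authors for RPKM, but the deposited values are estimated counts per gene: 76.3% of values above 0 are whole numbers within 0.01, and columns sum to 15625276 to 37609816. They were rounded to whole numbers. The wild-type files hold estimated counts, TPM and FPKM made by the authors with RSEM, per the file headers, and gave levels only. Whether strand was used in counting is not given in the sources used here.

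Genes that reached 1 CPM in 5 or more libraries (14847 of 24223) were tested with edgeR 4.0.16 in R 4.3.3: TMM scaling, robust quasi-likelihood fit of group means over all 28 knockout libraries, Benjamini-Hochberg adjustment over all tested genes, threshold 0.05, two-sided. The SE is the absolute log2 fold change divided by the square root of F. Each exposed group was set against baseline, t2 and t6 also against t0, and an F test covered all 5 groups. Alternatives used DESeq2 1.42.0, limma 3.58.1, other scalings and filters, and each library left out in turn. Figures used matplotlib 3.10.9. The pipeline was tested on simulated data in which 200 genes were changed by known folds at t0. It found 23.9% of 1.5-fold, 52.2% of 2-fold and 86.4% of 4-fold changes against baseline, with 3 false calls. Small changes were thus often missed in the simulated data. The simulation changed 200 of 14847 genes, whereas 45.5% of all genes were called at t0 in the data. With fewer changed genes the adjustment asks for a smaller unadjusted p, so these shares need not hold for the t0 comparison. Total counts per library limit the precision of low genes, and the SDs include both counting error and differences between mice.

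By rule, all 32 members are named, values per library are given for Trp53, Mdm2, Cdkn1a and the 3 members of each role list with the smallest p over the 5 groups, and the other 3 p53 lists give the 3 genes with the smallest p at t0 and at t6 against baseline. Members and lists were chosen with earlier results of these data known.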

Additional observations from a re-analysis of the deposited data

Results flagged for a closer look

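A sample counted as standing apart when its gap to the nearest other sample of its group exceeded Dixon's 95% critical value for the group's range. That held for 22 of 192 groups of values (11.5%). The critical value is set for 1 in 20 groups of independent, normally distributed values. The CPM and TPM used here were not transformed, and the same libraries recur for all genes, so the share is not read against that rate. Libraries t4 336 and t2 339 hold 11 of the 22.

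At t4, mouse 336 stood above the rest of its group in 6 of the 32 genes. Its Sfn was 1589 CPM, with 156 to 458 CPM in the others. Its Aen was 133 CPM (others 44.0 to 68.8), its Mdm2 138 CPM (others 84.6 to 101) and its Phlda3 64.6 CPM (others 37.6 to 45.8). Plk3 reached 106 CPM in t4 336 (others 11.9 to 26.6) and Btg2 104 CPM (others 53.1 to 66.5).

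At t2, mouse 339 is the knockout library with 238 Gprc5a counts and the fewest genes above 0. It held 94.8 CPM of Ccng1 (others 64.0 to 72.4), 16.0 CPM of Gadd45a (others 6.85 to 8.95), 17.9 CPM of Apaf1 (others 6.84 to 9.52) and 35.0 CPM of Fas (others 11 to 17.3), and only 24.1 CPM of Bax (others 46.0 to 54.5).

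The other values were spread over libraries. In t0 359, Polk was 52.3 CPM (others 21.9 to 25.8) and Trp53inp1 was 158 CPM (others 68.7 to 93.1). In t2 358, Sfn was 809 CPM (others 261 to 397) and Ei24 67.5 CPM (others 48.6 to 51.2), and in t2 334 Tnfrsf10b was 23.5 CPM (others 11.7 to 14.5). Baseline 343 held 392 CPM of Btg2 (others 65.2 to 185), and baseline 356 held 164 CPM of Ccng1 (others 85.2 to 105). Among wild-type mice, 295, with the fewest counts, held 91.5 TPM of Trp53 (others 11.3 to 23.5) and 33.2 TPM of Gadd45a (others 4.40 to 11.2). Wild-type 452 held 11 TPM of Plk3 (others 2.52 to 4.13), and 454 held 4.29 TPM of Xpc (others 10.5 to 14.0).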

How the results depend on the processing

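At t0, the count of 21 rises stayed within 1.5 times its value under each alternative run, and was 19 to 22 with each library left out in turn; the falls numbered 3 to 4 on leaving out libraries and 1 with library totals alone. Library totals alone also gave 1 fall at t2, 2 at t4 and 0 at t6, and 0 rises at t2 and 1 at t6 relative to t0. Voom weights gave 6 falls at t2, 1 rise and 4 falls at t6, and, relative to t0, 2 rises at t2 and 5 at t6. The limma trend fit gave 2 and 5 for those last counts, upper-quartile scaling gave 0 rises at t2 relative to t0, and leaving haemoglobin and Rn45s out gave 6 rises at t6 relative to t0. DESeq2 gave 8 rises at t4 and 1 at t6. Fitting only the groups compared gave 1 fall at t2, 1 at t6 and 0 rises at t2 relative to t0, and dropping the 5 doubted libraries gave 8 rises at t4, 0 falls at t6 and 0 rises at t2 relative to t0. The cause was not tested. With each library left out, counts ranged from 3 to 4 rises and 1 to 4 falls at t2, 3 to 7 and 3 to 4 at t4, 0 to 1 and 0 to 2 at t6, 0 to 4 and 14 to 17 at t2 relative to t0, 3 to 5 and 18 to 21 at t6 relative to t0, and 25 to 29 genes over the 5 groups. The rise at t2 relative to t0 was 0 without t0 332, 357 or 367 or t2 339, 2 without t2 358 and 4 without t0 359. Mean wild-type Perp was 70.9 to 85.8 TPM. Of 2105 gene values under the other settings 1991 stayed on their side of the threshold, 40 lost and 74 gained a call; with libraries left out 5254 of 5376 stayed, 65 lost and 57 gained a call. No called value changed sign, while some values that were not called did, among them Mdm2 at t0. No paired analysis was possible because each library is a separate mouse whose number occurs in 1 group. Depth limits the genes near 1 CPM, such as Eda2r and Gdf15 at baseline.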

Other observations

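Cdkn2a, at 0.141 ± 0.121 CPM at baseline (SD, n = 6), averaged 1.65 ± 0.710 CPM at t0 (n = 6), 0.793 ± 0.406 CPM at t2 (n = 5), 1.18 ± 0.354 CPM at t4 (n = 6) and 1.14 ± 0.610 CPM at t6 (n = 5). It passed the filter on low counts only through exposed libraries, so these levels are given with no test. Igfbp3 was higher at t0 as well (116 ± 15.7 CPM, against 31.3 ± 9.18 CPM at baseline; log2 fold change 1.90 ± 0.25, adjusted p = 1e-06). Ephx1 was higher at t0 (518 ± 131 CPM, against 340 ± 84.8 CPM; 0.60 ± 0.17, adjusted p = 0.0053), whereas at t6 it was lower, as given above.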
